A study of Rattus norvegicus with 6 samples.

Results

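The mitochondrial carriers are the SLC25 family of inner membrane transporters, to which the uncoupling proteins also belong. Their transcripts were followed in cultured heart muscle cells after knockdown of Decr1. The members were the rows of the deposited expression table whose symbol begins with Slc25a and a digit, together with Ucp1, Ucp2 and Ucp3. Slc25a20, the carnitine carrier, was left out. This gave 51 genes among 30001 features in the table. The rule itself reads symbols and no measured value, though this family was picked with earlier results of these data known.

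RNA had been sequenced from 6 libraries of neonatal rat ventricular myocytes, which are cultured heart muscle cells taken from Sprague-Dawley rats in their first 3 days of life. In 3 libraries the cells were labelled sh-Decr1, for a short hairpin RNA against Decr1, the gene of mitochondrial dienoyl-CoA reductase, which prepares unsaturated fatty acids for β-oxidation. In the other 3 they were the control, labelled NC. How the hairpin was delivered is not labelled, and all 6 libraries carry the same batch label. Per the labels' protocols, cells still in suspension after 2 h were moved to new dishes and cultured for 24 h with 10% serum, a step that lowers the share of other heart cells but need not remove them. The labels do not say whether each library is a culture or animal of its own. The p-values therefore rest on the spread between these libraries alone, and that spread may be technical. Levels are given as FPKM, sequenced fragments scaled to the length of the gene and to the depth of the library, so that genes can be compared with each other within a library. The depths behind the values were 35290664 to 37413240 fragments in the knockdown libraries and 39659092 to 40108670 fragments in the control libraries.

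Carriers of this family exchange nucleotides, phosphate, organic acids, amino acids, cofactors and metal ions between the cytosol and the mitochondrial matrix. In heart muscle the ADP/ATP carrier and the phosphate carrier supply ATP synthase, and the aspartate/glutamate and oxoglutarate carriers form the malate-aspartate shuttle that brings reducing equivalents of cytosolic NADH into the matrix. Uncoupling proteins take their name from Ucp1, which lets protons back into the matrix of brown fat. Ucp2 and Ucp3 are relatives whose transport roles differ from that of Ucp1.

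Decr1 stood at 3.33, 1.24 and 2.36 FPKM in the knockdown libraries, against 43.6, 44.3 and 42.8 FPKM in the control libraries. The mean was 5.30% of that in controls, with a log2 fold change of -3.80 (SE 0.186, limma adjusted p = 3.23e-08 by the Benjamini-Hochberg method). All log2 fold changes here are differences of mean log2(FPKM + 1), knockdown less control, and are too small for genes of low level. An exact permutation test, two-sided, gave p = 0.1, which is the smallest p that 6 libraries in groups of 3 can give. Among lists of cell type markers, all 14 fibroblast markers and all 6 epicardial markers fell. The summed level of the fibroblast markers was 1325 to 1483 FPKM in the knockdown libraries and 9973 to 10786 FPKM in the control libraries. The 12 cardiomyocyte markers summed to 12874 to 13738 FPKM in the knockdown libraries and 18536 to 19163 FPKM in the control libraries. Nppa alone averaged 5010 FPKM in the knockdown and 11702 FPKM in the control, a larger drop than that of the mean sum. The direction of the sum thus rested on Nppa. Of the 12 markers, Tnnt2, Tnni3, Actc1 and Myl3 rose, 7 fell and Mb did not pass. The means of Myl2, Myh7, Myh6 and Nppa in the knockdown were 6.24%, 13.9%, 39.4% and 42.8% of those in the control, and those of Tnnt2, Actc1 and Myl3 were 118%, 146% and 212%. After median-ratio scaling, which brings the typical ratio between libraries to a common level, Tnnt2 did not pass, at a log2 fold change of 0.05. Of 8 smooth muscle and pericyte markers 4 rose and 3 fell, and their sum was 5816 to 6247 FPKM in the knockdown libraries and 3499 to 3776 FPKM in the control libraries. Acta2, Cnn1, Cspg4 and Des rose, to 208%, 235%, 335% and 198% of their control means. Myh11, Rgs5 and Pdgfrb fell, to 80.3%, 74.6% and 16.7%. Acta2 alone averaged 3481 FPKM in the knockdown and 1672 FPKM in the control, the largest part of the list's sum. Of 6 endothelial markers tested, Kdr and Esam rose, Tek, Tie1 and Egfl7 fell and Cdh5 did not pass. Kdr rose to 225% of its control mean, and Tek fell to 50.2%. The 10 on the list summed to 17.4 to 18.9 FPKM in the knockdown libraries and 17.6 to 19.0 FPKM in the control libraries, which overlap. In bulk RNA, fewer cells of a type and less RNA per cell cannot be told apart. The part of these shifts in the carrier results was not tested.

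More of the tested carrier genes were higher in the knockdown than were lower. Of the 51 genes, 37 averaged 1 FPKM or more across the 6 libraries and were tested, 10 lay below that level and 4 were at 0 in every library. Of the 37 tested, 23 rose, 10 fell and 4 did not pass an adjusted p of 0.05. This adds to 33 of 37 calls, in a comparison where 80.8% of all features tested were called. Over all features 48.4% were called higher and 32.4% lower. The groups did not overlap for 32 of the 37 genes, against 82.3% of all features. Most features of any kind thus passed. A call on a carrier, and a count of calls within any list of genes here, is read against these shares. The median log2 fold change of the 37 genes was 0.38, beside 0.14 over all 11975 features tested.

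The count of rises depended in part on how the libraries were scaled. After median-ratio scaling 19 of the 37 rose and 11 fell, while with quantile normalization 20 rose and 10 fell. The median of the 37 genes was 0.21 with the first scaling and 0.26 with the second, beside -0.02 and 0.03 for all features. Higher calls made up 59.9% of calls over all features on the deposited values, 48.4% with median ratios and 52.2% with quantiles. For the carriers alone these shares were 69.7%, 63.3% and 66.7%. No gene that was called in one direction was called in the other under either scaling. A rise of at least 1 on the log2 scale was found for 6 of the 37, where 10.9% of all features rose as much. A fall of at least 1 was found for 1 of the 37, Slc25a35, where 8.00% of all features fell as much. Both counts depend on the 1 added to FPKM, which understates changes of low genes. With 0.1 added in its place, Slc25a29 also fell by as much, at -1.62. Among the rises, Slc25a34, Slc25a30 and Slc25a12 then stood at 1.43, 1.03 and 1.0.

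**Figure D1:**
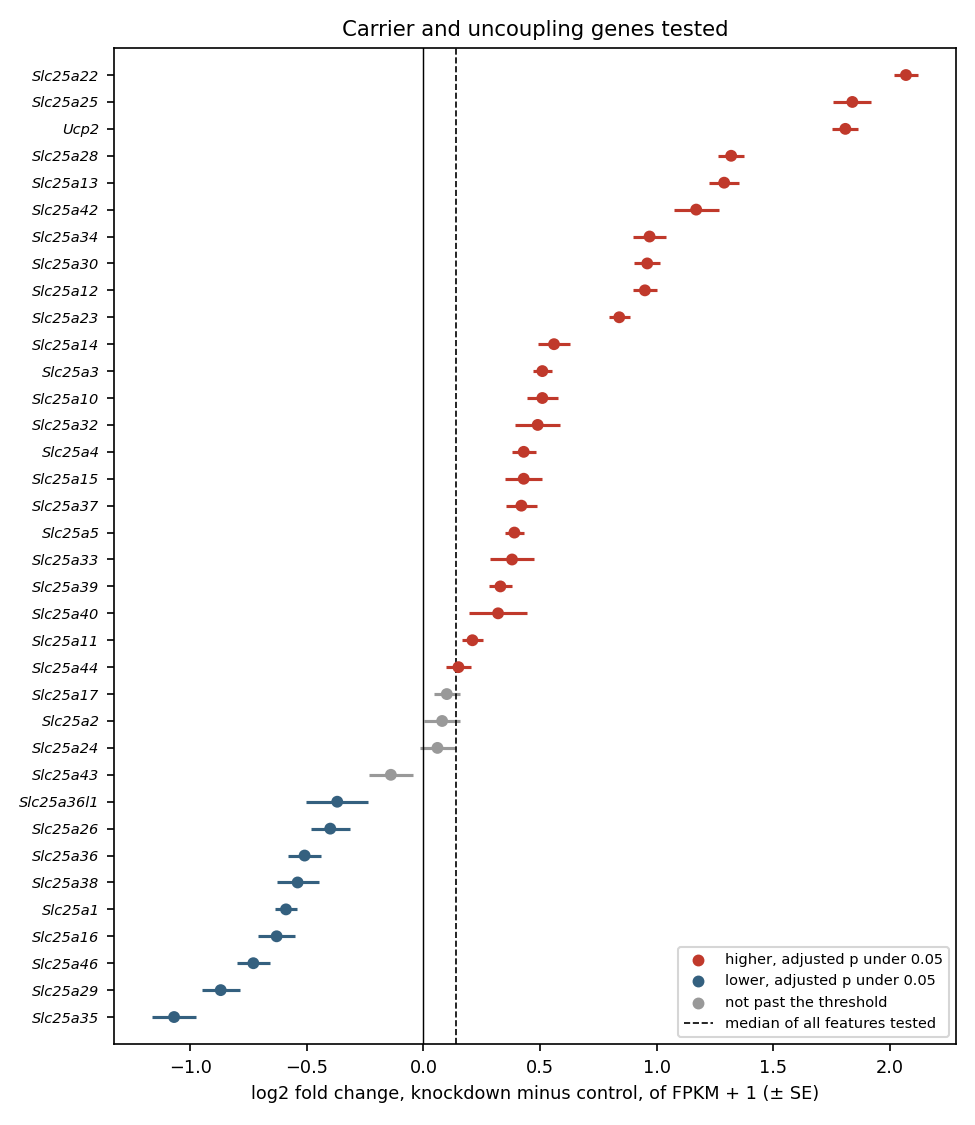
Log2 fold changes of 36 carrier and uncoupling genes tested, as knockdown minus control of log2(FPKM + 1). Points are the fitted values and bars their standard errors, with the median of all features at 0.14 as a dashed line. Slc25a22, Slc25a25 and Ucp2 stand apart at the top, and Slc25a35 at the bottom.

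A few carriers made up most of the family's RNA. Slc25a4, Slc25a3, Ucp2, Slc25a5 and Slc25a11 together held 85.0% to 86.3% of the summed FPKM of all members in the knockdown libraries and 83.6% to 83.8% in the control libraries. The sum itself was 3012, 2991 and 3224 FPKM in the knockdown libraries, against 1933, 1992 and 1968 FPKM in the control libraries. Without Ucp2 it was 2373 to 2537 FPKM in the knockdown libraries and 1760.3 to 1807 FPKM in the control libraries, so that the groups stayed apart. Ucp2 held 20.7% to 21.3% of the sum in the knockdown libraries and 8.93% to 9.78% in the control libraries. Slc25a4 was the most abundant member in both groups. Ucp2 ranked 2 of 51 by its mean in the knockdown and 4 in the control.

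**Figure D2:**
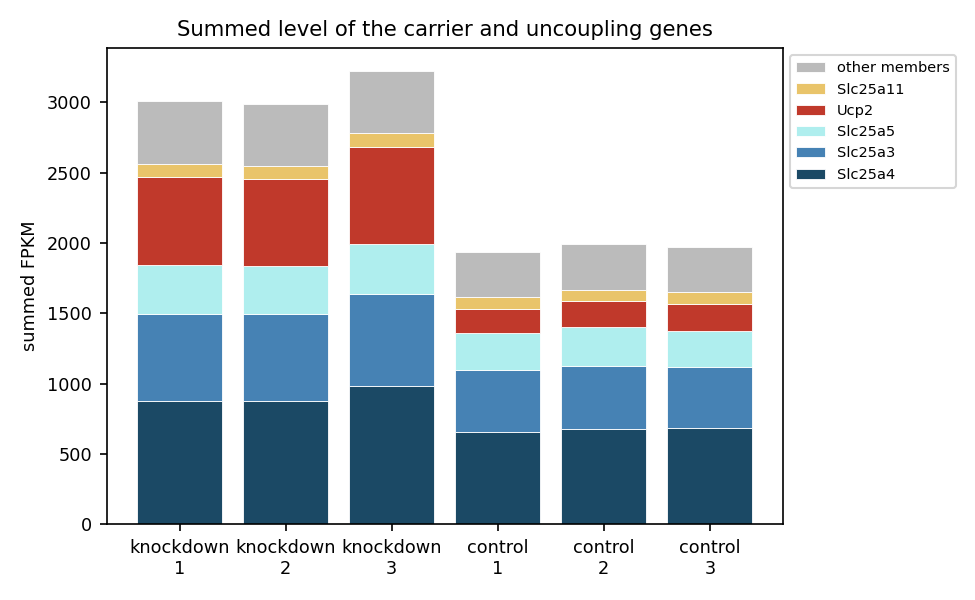
Summed FPKM of all 51 genes in each library, split into the 5 most abundant members and the rest. The knockdown bars reach 2991 to 3224 FPKM and the control bars 1933 to 1992 FPKM, and the Ucp2 segment shows the largest difference.

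The ADP/ATP carriers and the phosphate carrier rose by a similar, modest amount. Slc25a4, the ADP/ATP carrier of heart and skeletal muscle, stood at 877, 878 and 984 FPKM in the knockdown libraries, against 659, 679 and 684 FPKM in the control libraries. Every knockdown library lay above every control library, with the third knockdown library the highest. The mean was 913 ± 61.5 FPKM in the knockdown and 674 ± 13.2 FPKM in the control (SD, n = 3 each), a log2 fold change of 0.43 (SE 0.052, limma adjusted p = 2.30e-05). Slc25a5, the ADP/ATP carrier typical of dividing cells, stood at 346, 342 and 357 FPKM in the knockdown libraries and at 263, 275 and 259 FPKM in the control libraries. Its log2 fold change was 0.39 (SE 0.041, limma adjusted p = 9.13e-06), and the groups did not overlap. Slc25a4 made up 71.7% to 73.4% of ADP/ATP carrier FPKM in the knockdown libraries and 71.2% to 72.5% in the control libraries, ranges that overlap. Slc25a31, the ADP/ATP carrier known from testis, was at 0 in every library. Slc25a6 had 4 reads over the knockdown libraries and 3 over the control libraries.

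Slc25a3 carries the phosphate that ATP synthase uses. It was measured at 618, 615 and 653 FPKM in the knockdown libraries and at 439.6, 449 and 433 FPKM in the control libraries. The groups did not overlap, with a log2 fold change of 0.51 (SE 0.041, limma adjusted p = 1.18e-06). After median-ratio scaling the log2 fold changes were 0.25 for Slc25a4, 0.21 for Slc25a5 and 0.33 for Slc25a3, all still past the threshold. With quantile normalization they were 0.68 for Slc25a4, 0.33 for Slc25a5 and 0.67 for Slc25a3. RefSeq lists 9 pseudogenes named after Slc25a5, 2 after Slc25a3 and 1 after Slc25a4, and the sources used here do not say how reads shared with such copies were counted.

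The uncoupling proteins were represented almost wholly by Ucp2. It stood at 626, 618 and 687 FPKM in the knockdown libraries and at 173, 185 and 192 FPKM in the control libraries, on 36991 to 38811 reads per knockdown library and 11049 to 12350 reads per control library. The lowest knockdown library was thus well above the highest control library. The mean was 644 ± 38.0 FPKM in the knockdown and 183 ± 9.97 FPKM in the control (SD, n = 3 each), a ratio of 3.51 and a log2 fold change of 1.81 (SE 0.056, limma adjusted p = 1.40e-09). Ucp2 over Slc25a4, a ratio of FPKM taken within each library, was 0.699 to 0.714 in the knockdown libraries and 0.262 to 0.281 in the control libraries. Ucp2 is also known as a gene of macrophages. Of 8 macrophage markers tested none rose and 5 fell (8 after median-ratio scaling), and the 12 on the list summed to 199 to 221 FPKM in the knockdown libraries and 261 to 284 FPKM in the control libraries. The part of macrophages in the Ucp2 level was not tested.

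Ucp3, the uncoupling protein of skeletal and heart muscle, had 1, 36 and 4 reads in the knockdown libraries and 0 in each control library. Its level was 0.0113, 0.405 and 0.0477 FPKM in the knockdown libraries, so that most of it came from the second one. It lay below the level tested. A count of 0 allows up to 3 reads, and intervals and floors of this kind cover counting error only. On a gene of 1 kb, 3 reads stand for 0.0802 to 0.0850 FPKM in the knockdown libraries and 0.0748 to 0.0756 FPKM in the control libraries. Ucp1, the uncoupling protein of brown fat, was listed at 0 in all 6 libraries.

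Of the genes described as relatives of the uncoupling proteins, Slc25a30 and Slc25a14 rose. Slc25a30 stood at 16.7, 15.7 and 16.1 FPKM in the knockdown libraries and at 7.66, 8.17 and 7.72 FPKM in the control libraries. Its level was higher in every knockdown library, with a log2 fold change of 0.96 (SE 0.056, limma adjusted p = 1.13e-07). Slc25a14, which RefSeq also lists as Bmcp1, averaged 4.52 ± 0.147 FPKM in the knockdown and 2.76 ± 0.158 FPKM in the control (SD, n = 3 each), with a log2 fold change of 0.56 (SE 0.068, limma adjusted p = 3.07e-05). Slc25a27, or Ucp4, lay below the level tested, at 0.349 to 0.380 FPKM in the knockdown libraries and 0.385 to 0.622 FPKM in the control libraries.

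**Figure D3:**
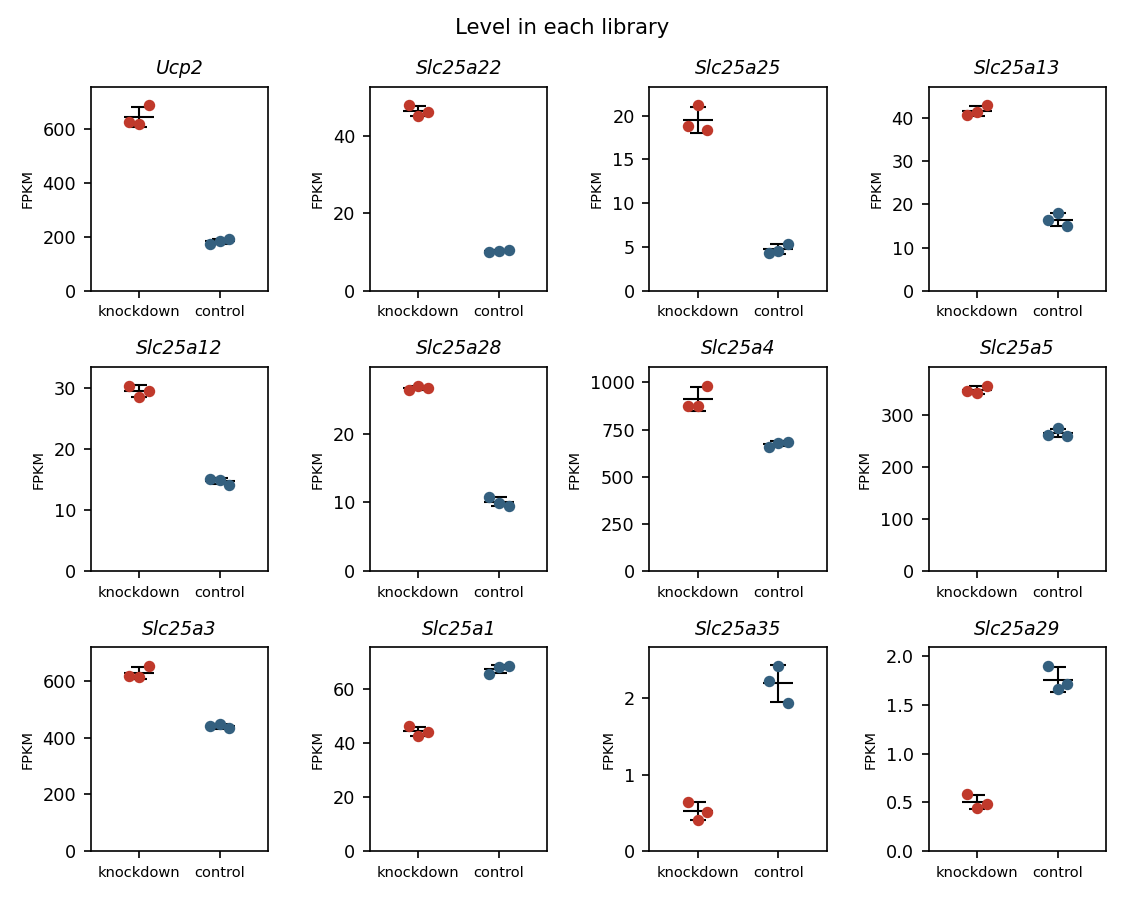
FPKM of 12 carrier and uncoupling genes in each library, with the mean and SD of 3 libraries per group. Every axis starts at 0. In each panel the knockdown and control points are apart, with knockdown higher for the first 9 genes and lower for Slc25a1, Slc25a35 and Slc25a29.

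Carriers of glutamate and aspartate rose with log2 fold changes of 0.95 to 2.07. Slc25a22, which brings glutamate into the matrix together with a proton, had the largest log2 fold change of all members tested. It was measured at 47.9, 45.2 and 46.3 FPKM in the knockdown libraries and at 9.97, 10.3 and 10.6 FPKM in the control libraries. The groups were far apart and each was tight, with a ratio of 4.52 and a log2 fold change of 2.07 (SE 0.05, limma adjusted p = 2.90e-10). By mean FPKM the gene ranked 7 among the members in the knockdown and 15 in the control. The other mitochondrial glutamate carrier, Slc25a18, had 5, 19 and 5 reads in the knockdown libraries and 0, 6 and 0 in the control libraries, below the level tested.

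Slc25a12 and Slc25a13 encode aralar and citrin, the aspartate/glutamate carriers of the malate-aspartate shuttle. Slc25a13 stood at 40.6, 41.4 and 42.9 FPKM in the knockdown libraries and at 16.4, 18.0 and 15.0 FPKM in the control libraries, a log2 fold change of 1.29 (SE 0.065, limma adjusted p = 3.93e-08). Slc25a12 stood at 30.4, 28.5 and 29.5 FPKM in the knockdown libraries and at 15.1, 14.9 and 14.1 FPKM in the control libraries, a log2 fold change of 0.95 (SE 0.051, limma adjusted p = 6.30e-08). Neither gene's groups overlapped. Slc25a12 made up 40.7% to 42.8% of the summed FPKM of this pair in the knockdown libraries and 45.2% to 48.4% in the control libraries, with no overlap. The pair's levels were thus closer to each other in the control.

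The other carrier of that shuttle, the oxoglutarate-malate carrier Slc25a11, moved little. It stood at 91.0, 93.1 and 99.4 FPKM in the knockdown libraries and at 82.4, 80.4 and 81.2 FPKM in the control libraries. Its log2 fold change of 0.21 passed the test as deposited (SE 0.045, limma adjusted p = 0.00148). It was 0.03 after median-ratio scaling (limma adjusted p = 0.582) and 0.05 after quantile normalization (limma adjusted p = 0.302), neither past the threshold. The 4 soluble enzymes of the shuttle all rose. Mdh2, the matrix malate dehydrogenase, averaged 492 ± 15.9 FPKM in the knockdown and 279 ± 5.55 FPKM in the control, and the cytosolic Mdh1 averaged 321 ± 21.2 FPKM in the knockdown and 183 ± 5.75 FPKM in the control (SD, n = 3 each). For the aspartate aminotransferases the log2 fold change was 0.39 for Got1 and 0.20 for Got2. After median-ratio scaling 3 of the 4 rose and Got2 did not pass.

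The citrate carrier was the most abundant member that fell. Slc25a1 exports citrate, from which the cytosol makes acetyl-CoA for fatty acids and sterols. It stood at 46.2, 42.7 and 44.0 FPKM in the knockdown libraries and at 65.6, 68.0 and 68.5 FPKM in the control libraries. Every knockdown library was below every control library, with a log2 fold change of -0.59 (SE 0.046, limma adjusted p = 9.21e-07). The gene was -0.78 on the same scale after median-ratio scaling. Of 7 genes that handle exported citrate or its products, 4 fell and 3 rose. The fallen genes included ATP citrate lyase, Acly, at 41.7 ± 0.748 FPKM in the knockdown and 104.8 ± 4.29 FPKM in the control (SD, n = 3 each), and acetyl-CoA carboxylase 1, Acaca, at 7.66 ± 0.25 FPKM in the knockdown and 14.5 ± 0.412 FPKM in the control. Fatty acid synthase, Fasn, fell to 33.4 ± 2.83 FPKM in the knockdown, against 67.1 ± 4.32 FPKM in the control. Me1, the cytosolic malic enzyme, rose to 76.4 ± 2.63 FPKM in the knockdown, against 47.3 ± 1.87 FPKM in the control.

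The dicarboxylate carrier Slc25a10, which exchanges malate and succinate for phosphate, went the other way from Slc25a1. It stood at 11.0, 10.4 and 10.2 FPKM in the knockdown libraries and at 7.18, 6.55 and 7.58 FPKM in the control libraries, a log2 fold change of 0.51 (SE 0.067, limma adjusted p = 4.93e-05). Slc25a21, the carrier of oxodicarboxylates, had 8 to 35 reads in the knockdown libraries and 11 to 27 in the control libraries and was not tested.

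Among the calcium-regulated carriers that exchange ATP-magnesium for phosphate, the order of the genes changed. Slc25a25 stood at 18.9, 21.2 and 18.4 FPKM in the knockdown libraries and at 4.30, 4.57 and 5.36 FPKM in the control libraries. The groups were far apart, with a ratio of 4.11 and a log2 fold change of 1.84 (SE 0.082, limma adjusted p = 1.74e-08). Slc25a23 stood at 33.1, 33.0 and 33.3 FPKM in the knockdown libraries and at 17.8, 17.8 and 18.5 FPKM in the control libraries, a log2 fold change of 0.84 (SE 0.045, limma adjusted p = 6.35e-08). Slc25a24 averaged 13.7 ± 0.909 FPKM in the knockdown and 13.1 ± 1.29 FPKM in the control (SD, n = 3 each), with overlapping groups (log2 fold change 0.06, SE 0.077, limma adjusted p = 0.461). Slc25a25 made up 28.2% to 30.7% of the FPKM of these carriers in the knockdown libraries and 12.01% to 15.1% in the control libraries. For Slc25a24 the share was 19.9% to 21.3% in the knockdown libraries and 32.8% to 38.6% in the control libraries. Slc25a41 was at 0 throughout.

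Promoter windows are shown for Ucp2 and Slc25a25, among the largest rises, and for Slc25a1, the most abundant member that fell. The pair of risen genes was picked after the letter search, since their windows held its rarer matches. The windows run from 250 bases before to 50 after the RefSeq start in the GRCr8 assembly, 5′ to 3′ on the gene's strand. The sources used here name no build for the FPKM values. Capitals mark matches on either strand to TGACGTCA (a cAMP response element), TCACNCCAC (a sterol regulatory element), GGGCGG (a GC box) and CCAAT.
Ucp2, chr1:164251123-164251422, plus strand: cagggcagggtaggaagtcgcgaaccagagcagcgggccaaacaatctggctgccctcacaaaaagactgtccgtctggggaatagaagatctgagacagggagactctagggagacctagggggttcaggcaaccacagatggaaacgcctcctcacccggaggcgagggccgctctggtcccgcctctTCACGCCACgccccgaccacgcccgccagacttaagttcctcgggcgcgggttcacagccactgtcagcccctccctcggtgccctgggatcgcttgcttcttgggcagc
Slc25a25, chr3:36116532-36116831, minus strand: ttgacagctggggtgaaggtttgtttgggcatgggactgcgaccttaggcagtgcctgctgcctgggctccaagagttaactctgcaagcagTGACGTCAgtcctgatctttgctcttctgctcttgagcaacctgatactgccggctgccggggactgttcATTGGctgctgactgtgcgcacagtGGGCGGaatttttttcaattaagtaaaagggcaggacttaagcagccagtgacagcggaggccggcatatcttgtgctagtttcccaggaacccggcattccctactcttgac
Slc25a1, chr11:96559804-96560103, plus strand: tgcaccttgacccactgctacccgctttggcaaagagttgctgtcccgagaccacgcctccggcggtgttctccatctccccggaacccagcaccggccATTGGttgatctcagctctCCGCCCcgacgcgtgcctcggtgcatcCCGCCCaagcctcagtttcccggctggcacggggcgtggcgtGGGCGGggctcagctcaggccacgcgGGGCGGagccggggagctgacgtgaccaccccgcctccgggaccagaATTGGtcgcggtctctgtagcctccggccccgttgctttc

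The Ucp2 window held 1 match to the sterol regulatory letters, found in 1.12% of the 33469 promoter windows in the table and in 2 of the 42 members that have a window there. The other was Slc25a24, which did not pass the test. The Slc25a25 window held 1 match to the cAMP response letters, found in 1.83% of all windows and in 2 members, the other being Slc25a33. The Slc25a1 window held 4 GC boxes and 2 CCAAT matches. A GC box was present in 26 of the 42 member windows, or 61.9%, and in 33.1% of all windows, which also cover genes that do not code for protein. It was present for 16 of 20 genes that rose and 4 of 5 that fell. CCAAT was present in 21 of the 42 member windows and in 37.5% of all windows. No member window held TCAAGGTCA, the letters of estrogen-related receptors, which 0.433% of all windows held. None held the PPAR-type repeat, AGGTCA followed after any 1 base by AGGTCA, which 0.0538% of all windows held. The NRF1 letters, GCGCA followed after any 1 base by GCGC, were found in 1 member (2.38%) and in 4.25% of all windows, and CACGTG, an E-box, in 3 members (7.14%) and in 6.42% of all windows. No searched letters overlapped one another in the windows shown. A match describes the letters only.

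Carriers of iron and of glutathione rose, by very different amounts. Slc25a28, or mitoferrin 2, imports iron into mitochondria outside the red cell lineage. It stood at 26.3, 27.0 and 26.7 FPKM in the knockdown libraries and at 10.8, 9.93 and 9.52 FPKM in the control libraries, a log2 fold change of 1.32 (SE 0.057, limma adjusted p = 1.32e-08). Slc25a37, mitoferrin 1 and best known from red cell precursors, averaged 9.24 ± 0.462 FPKM in the knockdown and 6.65 ± 0.416 FPKM in the control (SD, n = 3 each), with a log2 fold change of 0.42 (SE 0.067, limma adjusted p = 0.000191). Slc25a28 over Slc25a37 was 2.72 to 3.04 in the knockdown libraries and 1.41 to 1.61 in the control libraries, as a ratio of FPKM. Slc25a39, a glutathione importer, averaged 55.7 ± 0.742 FPKM in the knockdown and 44.2 ± 2.67 FPKM in the control, with a log2 fold change of 0.33 (SE 0.051, limma adjusted p = 0.000164). After median-ratio scaling the values were 0.26 for Slc25a37 and 0.15 for Slc25a39, both past the threshold. RefSeq lists 8 pseudogenes named after Slc25a39.

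Slc25a40, the paralog of Slc25a39, averaged 5.78 ± 1.04 FPKM in the knockdown and 4.41 ± 0.689 FPKM in the control (SD, n = 3 each), and its groups overlapped. Its log2 fold change of 0.32 passed with all 6 libraries (limma adjusted p = 0.0325). Without knockdown replicate 1 it was 0.21 (limma adjusted p = 0.13), and the call was also lost without knockdown replicate 2 (limma adjusted p = 0.0624), without control replicate 1 (limma adjusted p = 0.0645) and without control replicate 3 (limma adjusted p = 0.121). It did not pass after either scaling, at 0.17 with median ratios and 0.24 with quantiles.

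The glycine carrier Slc25a38, needed for haem synthesis in red cell precursors, fell while most other genes of mitochondrial haem synthesis rose. It stood at 5.88, 4.60 and 4.74 FPKM in the knockdown libraries and at 8.26, 7.18 and 8.03 FPKM in the control libraries, a log2 fold change of -0.54 (SE 0.09, limma adjusted p = 0.000276). Of 10 genes tested for mitochondrial steps of haem and iron-sulphur cluster synthesis, 8 rose, Ppox fell and Nfs1 did not pass, with a median log2 fold change of 0.45. After median-ratio scaling 6 rose and 1 fell. Alas1, the gene of the enzyme that joins glycine to succinyl-CoA, averaged 207 ± 9.06 FPKM in the knockdown and 64.9 ± 4.85 FPKM in the control (SD, n = 3 each). Cpox averaged 47.6 ± 0.634 FPKM in the knockdown and 9.01 ± 0.108 FPKM in the control. Ferrochelatase, Fech, averaged 34.6 ± 0.762 FPKM in the knockdown and 11.2 ± 0.643 FPKM in the control. Glrx5, a glutaredoxin of iron-sulphur cluster assembly, averaged 43.5 ± 1.74 FPKM in the knockdown and 21.4 ± 0.554 FPKM in the control.

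Other amino acid carriers went both ways. Slc25a29, a carrier of basic amino acids, stood at 0.581, 0.445 and 0.485 FPKM in the knockdown libraries and at 1.90, 1.66 and 1.71 FPKM in the control libraries. The groups did not overlap, on 120 reads over the knockdown libraries and 454 over the control libraries, with a log2 fold change of -0.87 (SE 0.081, limma adjusted p = 3.55e-06). On this scale a gene of so low a level understates its ratio, which was 0.287. The ornithine carrier Slc25a15 averaged 2.44 ± 0.0773 FPKM in the knockdown and 1.55 ± 0.179 FPKM in the control (SD, n = 3 each), with a log2 fold change of 0.43 (SE 0.079, limma adjusted p = 0.00055). Its paralog Slc25a2 averaged 1.52 ± 0.0809 FPKM in the knockdown and 1.38 ± 0.117 FPKM in the control and did not pass (limma adjusted p = 0.328). Slc25a48 was placed in this group by listing only, and its substrate was not examined. It had 14 to 21 reads in the knockdown libraries and 0 to 7 in the control libraries and was not tested.

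Slc25a44, the carrier of branched-chain amino acids, averaged 12.6 ± 0.573 FPKM in the knockdown and 11.2 ± 0.153 FPKM in the control (SD, n = 3 each). Its log2 fold change of 0.15 was close to the median of all features and passed narrowly (limma adjusted p = 0.0268). It was -0.02 after median-ratio scaling (limma adjusted p = 0.771) and 0.02 after quantile normalization (limma adjusted p = 0.791). The call was lost without knockdown replicate 1 (limma adjusted p = 0.099), without knockdown replicate 3 (limma adjusted p = 0.0662), without control replicate 1 (limma adjusted p = 0.0521) and without control replicate 2 (limma adjusted p = 0.0671).

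Of 9 nucleotide and cofactor carriers tested, 5 fell, 3 rose and 1 did not pass, where 32.4% of all features were called lower and 48.4% higher. Slc25a42, which carries coenzyme A and adenine nucleotides, rose. It stood at 9.37, 8.33 and 7.11 FPKM in the knockdown libraries and at 3.33, 3.18 and 2.80 FPKM in the control libraries, a log2 fold change of 1.17 (SE 0.096, limma adjusted p = 1.36e-06). Slc25a16, long linked to coenzyme A, fell. It stood at 0.976, 1.201 and 1.18 FPKM in the knockdown libraries and at 2.27, 2.39 and 2.17 FPKM in the control libraries, a log2 fold change of -0.63 (SE 0.079, limma adjusted p = 3.47e-05). This pair of genes therefore moved in opposite directions, each with groups that did not overlap.

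The carriers of pyrimidine nucleotides also parted. Slc25a36 stood at 6.91, 7.31 and 6.56 FPKM in the knockdown libraries and at 10.6, 10.9 and 9.45 FPKM in the control libraries, a log2 fold change of -0.51 (SE 0.07, limma adjusted p = 6.64e-05). Slc25a33 averaged 9.82 ± 0.666 FPKM in the knockdown and 7.36 ± 1.07 FPKM in the control (SD, n = 3 each), with a log2 fold change of 0.38 (SE 0.094, limma adjusted p = 0.00392). After median-ratio scaling the value of Slc25a33 was 0.21 and did not pass (limma adjusted p = 0.0657). Slc25a33 over Slc25a36, a ratio of FPKM within each library, was 1.24 to 1.52 in the knockdown libraries and 0.591 to 0.888 in the control libraries. Slc25a36l1, named as a copy of Slc25a36 with which it may share reads, averaged 0.874 ± 0.328 FPKM in the knockdown and 1.40 ± 0.271 FPKM in the control, with overlapping groups. Its log2 fold change of -0.37 (limma adjusted p = 0.0272) was -0.24 without knockdown replicate 1 (limma adjusted p = 0.103), and the call was also lost without knockdown replicate 2 (limma adjusted p = 0.0564) and without control replicate 3 (limma adjusted p = 0.104).

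The carrier of S-adenosylmethionine fell, and the folate carrier rose. Slc25a26, which brings S-adenosylmethionine into the matrix, stood at 1.19, 1.54 and 1.47 FPKM in the knockdown libraries and at 2.13, 2.31 and 2.08 FPKM in the control libraries, a log2 fold change of -0.40 (SE 0.084, limma adjusted p = 0.00124). The groups did not overlap. Slc25a32, the folate carrier, averaged 6.59 ± 0.948 FPKM in the knockdown and 4.39 ± 0.330 FPKM in the control (SD, n = 3 each), with a log2 fold change of 0.49 (SE 0.096, limma adjusted p = 0.000941). Of 7 genes tested for mitochondrial folate steps, 4 rose and 3 fell. The methylenetetrahydrofolate dehydrogenase gene Mthfd2 rose to 66.0 ± 2.22 FPKM in the knockdown, against 34.4 ± 0.244 FPKM in the control. Mthfd1l rose as well, while Mthfd2l fell, with overlapping groups (log2 fold change -0.49, limma adjusted p = 0.016). Aldh1l2, a formyltetrahydrofolate dehydrogenase, fell to 3.71 ± 0.0757 FPKM in the knockdown, against 30.2 ± 2.02 FPKM in the control. Gcsh, of the glycine cleavage system, fell as well, to 30.0 ± 2.36 FPKM in the knockdown, against 49.3 ± 3.01 FPKM in the control.

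Slc25a17, which serves peroxisomes rather than mitochondria, averaged 17.4 ± 0.384 FPKM in the knockdown and 16.2 ± 0.872 FPKM in the control (SD, n = 3 each) and did not pass (limma adjusted p = 0.106). Slc25a52, a relative of the NAD carrier known in human, had 3 to 14 reads in the knockdown libraries and 17 to 40 in the control libraries, below the level tested.

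Among the remaining carriers, Slc25a46 sits in the outer membrane and is known for its part in mitochondrial fission. It stood at 5.83, 5.80 and 5.65 FPKM in the knockdown libraries and at 10.3, 11.2 and 9.23 FPKM in the control libraries. The groups did not overlap, with a log2 fold change of -0.73 (SE 0.072, limma adjusted p = 5.98e-06). Slc25a34 and Slc25a35 are neighbouring branches of the family without an agreed substrate, and they moved in opposite directions. Slc25a34 stood at 2.96, 3.02 and 3.17 FPKM in the knockdown libraries and at 1.09, 1.12 and 0.996 FPKM in the control libraries, a log2 fold change of 0.97 (SE 0.072, limma adjusted p = 6.52e-07). Slc25a35 stood at 0.646, 0.408 and 0.516 FPKM in the knockdown libraries and at 2.22, 2.42 and 1.93 FPKM in the control libraries, a log2 fold change of -1.07 (SE 0.093, limma adjusted p = 2.25e-06). The second rested on 136 reads over the knockdown libraries and 620 over the control libraries. Slc25a43 averaged 1.02 ± 0.184 FPKM in the knockdown and 1.22 ± 0.127 FPKM in the control (SD, n = 3 each), with overlapping groups. Its log2 fold change of -0.14 did not pass (limma adjusted p = 0.193). It passed after median-ratio scaling, at -0.23 (limma adjusted p = 0.038), but under none of the other alternatives run (limma adjusted p from 0.0565 to 0.525).

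The last low genes were not tested. Slc25a45 had 98 to 109 reads in the knockdown libraries and 71 to 95 in the control libraries. Slc25a47, known from liver, had 8 to 18 reads in the knockdown libraries and 0 to 7 in the control libraries. Slc25a53 had 13 to 17 reads in the knockdown libraries and 14 to 19 in the control libraries, and Slc25a54 was at 0 throughout. By RefSeq, 17 of the 51 genes overlap another protein-coding gene in GRCr8, among them Slc25a22, Slc25a25, Slc25a13, Slc25a42, Slc25a11, Slc25a46, Slc25a16, Slc25a26 and Slc25a35. Without a stated strand setting, reads of such overlapping genes cannot be told apart.

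Transcripts for the machinery that brings carriers into the inner membrane were mostly higher. Most carriers of the inner membrane have no cleaved presequence and pass through the TOM complex and small TIM chaperones to the TIM22 insertase. Of 13 genes of this route, 12 rose and Timm22, the gene of the insertase channel, fell, where 48.4% of all features were called higher and 32.4% lower. The median log2 fold change of the route was 0.42. After median-ratio scaling 9 rose and Timm22 fell, while with quantile normalization 10 rose and 1 fell. Timm10, a chaperone subunit, averaged 55.6 ± 2.52 FPKM in the knockdown and 13.5 ± 0.788 FPKM in the control (SD, n = 3 each). Agk, a kinase that is also a TIM22 subunit, averaged 32.4 ± 0.611 FPKM in the knockdown and 13.0 ± 0.854 FPKM in the control. Tomm70, the receptor that takes up carriers, averaged 31.0 ± 1.96 FPKM in the knockdown and 16.9 ± 0.278 FPKM in the control. The channel gene Tomm40 averaged 61.8 ± 2.36 FPKM in the knockdown and 35.4 ± 3.04 FPKM in the control. Timm22 averaged 10.2 ± 0.614 FPKM in the knockdown and 16.3 ± 1.15 FPKM in the control.

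Genes listed here as transporters of the mitochondrial membranes, other than those with an Slc25a symbol, showed no common direction. Of 18 tested, 8 rose, 5 fell and 5 did not pass, with a median log2 fold change of 0.00. After median-ratio scaling 6 rose and 10 fell, while with quantile normalization 6 rose and 9 fell. The pyruvate carrier subunit Mpc1 averaged 112 ± 5.65 FPKM in the knockdown and 59.0 ± 5.34 FPKM in the control (SD, n = 3 each), and Vdac1, the outer membrane channel, 200.3 ± 5.63 FPKM in the knockdown and 130.1 ± 5.73 FPKM in the control. The transporter gene Abcb10 averaged 6.26 ± 0.321 FPKM in the knockdown and 3.17 ± 0.0963 FPKM in the control. The sideroflexin gene Sfxn3 fell to 16.8 ± 0.368 FPKM in the knockdown, against 29.5 ± 0.969 FPKM in the control. Of 6 genes tested for the calcium uniporter complex, 4 rose, Mcur1 fell and Smdt1 did not pass. The pore gene Mcu averaged 17.3 ± 0.168 FPKM in the knockdown and 8.09 ± 0.66 FPKM in the control, and its inhibitory relative Mcub 6.87 ± 0.127 FPKM in the knockdown and 3.47 ± 0.318 FPKM in the control. The log2 fold change of the gatekeeper gene Micu2 was 0.27, and it did not pass after median-ratio scaling.

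**Figure D4:**
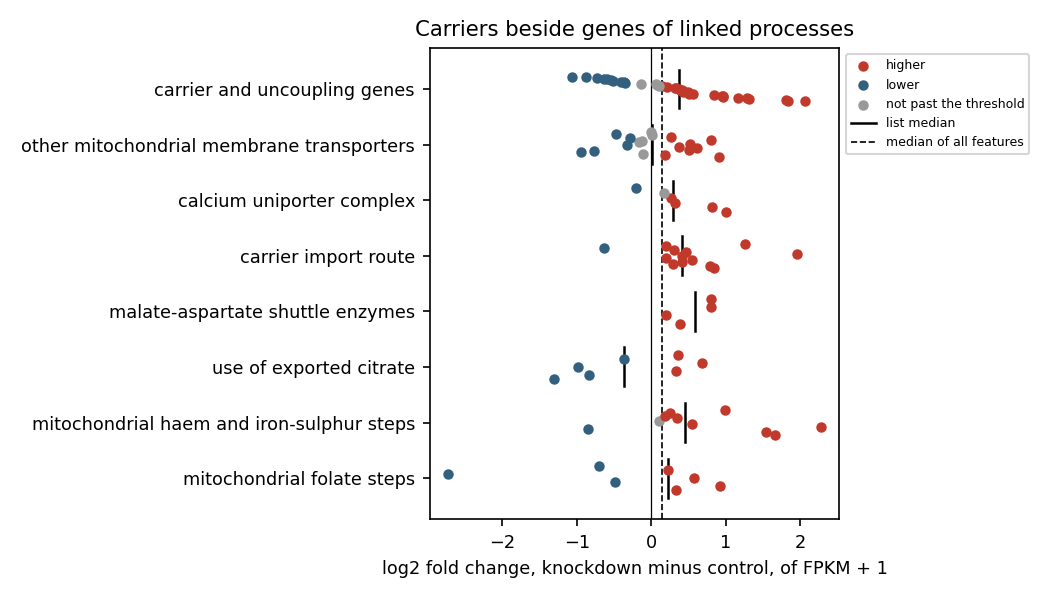
Log2 fold changes of the carrier and uncoupling genes above those of 7 lists of linked genes, as knockdown minus control of log2(FPKM + 1). Each point is a gene, black bars are list medians and the dashed line is the median of all features, 0.14. The median is 0.38 for the carriers, 0.42 for the carrier import route and -0.37 for genes that use exported citrate.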

How the data were processed

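The values are FPKM, computed and deposited by the authors in a single table with a row for each symbol. Tools named in the submitters' processing notes are fastp, HISAT2 and HTSeq. The sources used here give neither their versions nor the genome build, annotation or strand setting. The members and lists were chosen with earlier results of these data known.

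Depths and reads were recovered from the steps of the FPKM values, with whole reads (within 1e-08 reads) for 22634 of 22634 features above 0; a gene's reads are the fewest that fit. The mean chi-square per feature was 7.15 to 12.3 between replicates and 493 to 539 between groups, where sampling noise gives 1. No replicates looked like 1 library deposited again, and each was counted as a sample.

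Values were transformed as log2(FPKM + 1), which understates changes of low genes. Features averaging 1 FPKM or more were tested, knockdown against control, with limma 3.58.1 (trend, no covariate) in R 4.3.3. Two-sided p-values were adjusted by Benjamini-Hochberg over all 11975 features, with a threshold of 0.05. The fit was tested on simulated data in which most features were left unchanged. In the real data most features were called, a setting that the simulation did not cover. Named members are the 10 largest rises and the 9 falls past the threshold with groups that do not overlap, and others by role; 2 genes that the rules name are not reported here. Of each linked list, up to 4 genes with the smallest adjusted p are named, together with exceptions picked after their values were seen. Alternatives changed the pseudocount (0.1), filter, scaling, block and libraries. Figures used matplotlib 3.10.9 in Python 3.11.15. Promoters came from RefSeq, GRCr8, with symbols of all 51 members matched.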

Additional observations from a re-analysis of the deposited data

How the results depend on the processing

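With a pseudocount of 0.1, no filter, either scaling, a replicate block or any 1 library left out, the count of carriers that rose lay between 19 and 25 and the count that fell between 9 and 11. Of 406 repeats of a single gene's value, 379 kept direction and call, 20 lost the call, 1 gained it and 7 changed sign, of which 1 is also among the lost calls. The sign changes were in 4 genes whose value as deposited was 0.15 or less. Median-ratio scaling gave -0.07 for Slc25a17, -0.03 for Slc25a2, -0.11 for Slc25a24 and -0.02 for Slc25a44, quantile normalization -0.05 for Slc25a17 and -0.08 for Slc25a24, and leaving out 1 library in turn gave -0.01 (without control replicate 3) to 0.11 for Slc25a24. The median of the carriers was 0.21 after median-ratio scaling, 0.26 after quantile normalization and 0.21 without a filter, which adds 10 low genes. It ranged from 0.34 to 0.42 with 1 library left out. Median-ratio scaling divided the knockdown libraries by 1.07 to 1.08 and the control libraries by 0.94 to 0.95. This division by itself lowers the log2 fold changes. Why these factors differ between the groups, and the cause of the shift under quantile normalization, were not tested. The replicate block gave 23 rises and 10 falls and 9574 calls over all features. Same-numbered libraries did not deviate together (r = -0.00267, 0.0678 and -0.0713), and not every library correlated best with its own number. Deviations from a mean of 3 libraries constrain each other. These values therefore cannot show whether same-numbered libraries share a culture, which the labels do not say. The 10 low genes were left out by the FPKM filter. Without it Slc25a45 (0.21), Slc25a47 (0.24) and Slc25a48 (0.13), named after their values were seen, were called higher, and Slc25a40 and Slc25a36l1 lost their calls.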
